A study of Mus musculus with 18 samples.

Results

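The phagocyte NADPH oxidase is the enzyme complex with which monocytes, macrophages and neutrophils make superoxide, and the genes described here encode its parts. In resting cells a membrane heterodimer of the Cybb product (gp91phox) and the Cyba product (p22phox) stands apart from the cytosolic proteins encoded by genes that include Ncf1 (p47phox) and Ncf4 (p40phox). On activation the cytosolic proteins and a Rac GTPase move to the membrane, and electrons pass from NADPH to oxygen. Loss of any of the main subunits causes chronic granulomatous disease in people.

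The members were 5 genes listed by symbol (Cybb, Cyba, Ncf1, Ncf4 and Rac2), taken from a table of 20298 genes with 18 libraries. A row was matched for 4 of the 5. Cybb was not analysed here. All 4 measured genes passed the filter on low values used below, a mean above 2 RPKM (reads scaled to transcript length and to the mapped reads of the library) in at least 1 of the groups compared.

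The study compared mouse monocytes that can or cannot form STAT5 tetramers. The cells were Ly6C+ CCR2+ monocytes of the C57BL/6 strain in the labels (C57BL/6J for the DKI line in the study's methods), either wild type (WT) or DKI, a Stat5a-Stat5b double knockin whose mutated N-domains leave STAT5 able to form dimers but not tetramers. STAT5 is a transcription factor downstream of the GM-CSF receptor. Both genotypes were measured untreated on day 0 and after culture with 20 ng/mL GM-CSF on day 3 and day 6, with 3 libraries in each of the 6 groups. The knockin is carried in every cell of the DKI mouse, not only in monocytes. The cells were enriched by negative selection, and the age of the mice was not given. The study describes its RNA-seq as pooling independent experiments, but the labels tie no library to an animal or experiment, so p-values measure the spread between these libraries.

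Liver is the tissue in the labels, but the study's methods describe bone marrow. The 4 hepatocyte markers summed to at most 0.0470 RPKM in any library, and all 4 were at 0 in every day 3 and day 6 library. The 6 markers of Ly6C+ CCR2+ monocytes summed to between 2581 and 3567 RPKM on day 0. Negative selection is meant to deplete other cells. The 14 neutrophil markers summed to between 2592 and 5581 RPKM in the same day 0 libraries. The single markers differed widely. S100a8 stood at 599 to 1722 RPKM and Elane at 213 to 397 RPKM. Ly6g stood at 1.14 to 3.15 RPKM and Cxcr2 at 0.25 to 0.82 RPKM. Which cells gave these transcripts was not tested. The estimated depth was about 29500000 to 43200000 reads per library, which put at least about 4815 reads behind every member value, so counting error was at most about 1.44% and small beside the spread between libraries. The library names of replicate 1 on days 3 and 6 carry an earlier year than all others.

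The members were among the most abundant transcripts of these cells. In WT cells on day 0, Cyba stood at 606 ± 23.1 RPKM (SD, n = 3), rank 64 of the table. Ncf1 followed at 179 ± 20.7 RPKM, Rac2 at 174 ± 45.9 RPKM and Ncf4 at 163 ± 9.32 RPKM. Cyba was above the other members in all 18 libraries, whereas Ncf1, Rac2 and Ncf4 differed on day 0 by less than their spread. In DKI cells on day 6 the order was Cyba at 935 ± 56.9 RPKM, Ncf1 at 175 ± 2.53 RPKM, Rac2 at 115 ± 28.5 RPKM and Ncf4 at 106 ± 22.2 RPKM, and the last pair again differed by less than its spread.

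The genes differed in how much they varied. Ncf1 was the steadiest, with values between 124 and 195 RPKM over all 18 libraries. Its SD on the log2(RPKM + 1) scale was 0.15, and only 1.64% of the 10417 genes compared had a lower one (median of all genes 0.46). Cyba (SD 0.34), Ncf4 (0.37) and Rac2 (0.42) had larger values, with 31.6%, 37.9% and 44.9% of genes below them. For Rac2 the spread lay within groups: its pooled SD between libraries of a group was 0.38, against 0.17 for Cyba, 0.16 for Ncf1 and 0.16 for Ncf4. On day 0 Rac2 was lowest in replicate 1 and highest in replicate 3 of both genotypes.

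**Figure D1:**
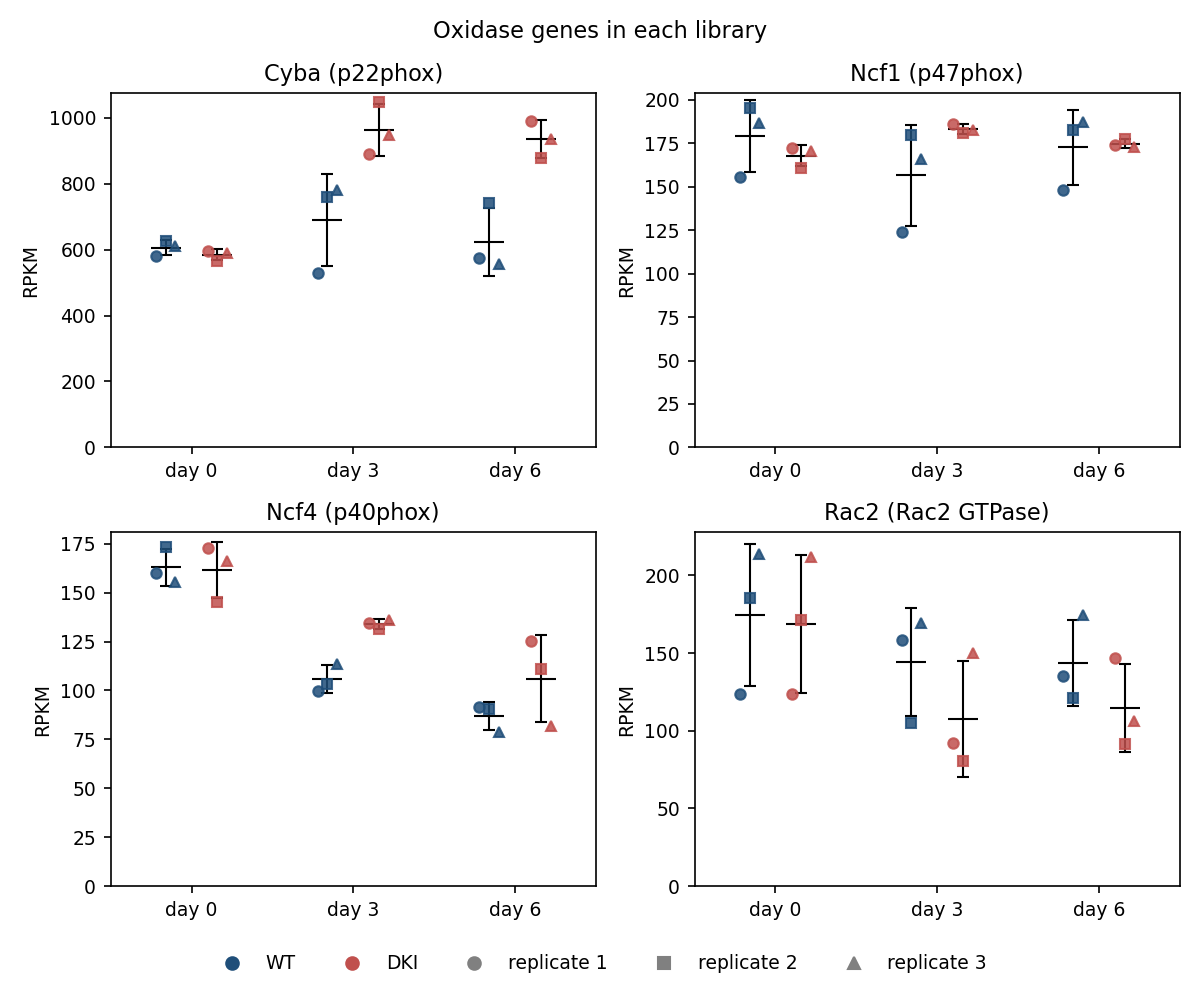
RPKM (linear axis from 0) of Cyba, Ncf1, Ncf4 and Rac2 in each of the 18 libraries by day, WT in blue and DKI in red, with the marker shape giving the replicate number; horizontal bars are group means and error bars are 1 SD (n = 3). Cyba in DKI cells lies above every WT library on days 3 and 6, Ncf4 lies below its day 0 values on days 3 and 6 in both genotypes, and Ncf1 stays between 124 and 195 RPKM.

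Before GM-CSF the genotypes gave overlapping values for all members. Differences were tested with limma on log2(RPKM + 1) over all genes above the filter, and a gene was called at a Benjamini-Hochberg adjusted p below 0.05 and a fold above 1.5. On day 0 limma called 0 of the 4 members (0% of all 9179 genes tested), and 0 of the 4 had an unadjusted p below 0.05, as 44 genes (0.479%) did. The log2 fold changes of DKI against WT lay between -0.09 for Ncf1 and -0.01 for Ncf4. The intervals differed in width: for Cyba the 95% interval ran from -0.31 to 0.20, for Rac2 from -0.72 to 0.63.

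Cyba encodes p22phox, the small membrane subunit that holds the catalytic subunit stable and docks p47phox. On day 0 it stood at 581, 626 and 611 RPKM in WT replicates 1 to 3 and at 596, 565 and 591 RPKM in DKI replicates 1 to 3. On day 3 it read 530, 758 and 780 RPKM in WT, against 891, 1047 and 948 RPKM in DKI. On day 6 it read 573, 742 and 555 RPKM in WT, against 990, 877 and 937 RPKM in DKI. The genotypes overlapped on day 0, whereas on days 3 and 6 every DKI library was above every WT library.

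The day 3 difference of Cyba was 0.50 ± 0.25 on the log2 scale (SE, a 1.41-fold ratio; 95% interval -0.11 to 1.10), with an adjusted p of 0.267 in limma. On day 6 it was 0.59 ± 0.21 (1.51-fold; 0.10 to 1.09), with an unadjusted p of 0.0254 and an adjusted p of 0.120. Cyba therefore did not pass the adjusted threshold on either day. It was higher in DKI in 3 of 3 same-numbered pairs on both days, which follows from the groups not overlapping. With all 18 libraries in a single fit, the day 6 adjusted p was 0.0253 and Cyba was called. That fit called more genes of every kind, 519 higher and 1054 lower of 9842, against 268 and 474 in the main fit. Without replicate 1 of days 3 and 6, the difference was 0.37 on day 3 and 0.50 on day 6. Leaving out 1 library at a time gave 0.32 (without WT replicate 1) to 0.60 (without WT replicate 3) on day 3. Groups that do not overlap were common in these data: 13.4% of all genes on day 3 and 10.6% on day 6 had every DKI library above every WT library.

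The median log2 fold change of all genes was -0.11 on day 3 and -0.17 on day 6. After centring each library on its median, the difference of Cyba was 0.58 on day 3 and 0.74 on day 6, still uncalled. Over time, Cyba rose in DKI cells from day 0 to day 3 by 0.72 ± 0.20 on the log2 scale (1.64-fold, limma adjusted p = 0.0332), a step in which 34.2% of all genes were called, 13.1% higher and 21.1% lower. The median of all genes was -0.16 in this step, and the centred value of Cyba was 0.89, still called. The call was lost under several settings, among them with quantile normalization (0.44, adjusted p = 0.150), with no filter on low values (adjusted p = 0.217), and without any of DKI day 0 replicates 1, 2 and 3 or DKI day 3 replicates 2 and 3, when adjusted p lay between 0.0846 and 0.127. In WT cells the same step was 0.16 ± 0.20, with overlapping groups (adjusted p = 0.520), and ranged from 0.064 without WT day 3 replicate 3 to 0.34 without WT day 3 replicate 1.

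The difference between these changes was tested as a genotype by time term. For Cyba it was 0.55 ± 0.25 from day 0 to day 3 (unadjusted p = 0.0494, limma adjusted p = 0.317) and 0.65 ± 0.20 from day 0 to day 6 (unadjusted p = 0.00927, limma adjusted p = 0.123). Neither passed the threshold, which 2.91% and 2.8% of all genes did. With the replicate block 10.2% and 13.5% of all genes passed, and Cyba still did not (adjusted p = 0.126 and 0.0726). Without WT day 6 replicate 2, the WT library with the highest Cyba value of that day, the second term was 0.78 with an adjusted p of 0.0417 and was called. In that fit 522 of 10375 genes (5.03%) were called.

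Ncf1 encodes p47phox, the organizer that is phosphorylated on activation and carries the other cytosolic proteins to the membrane. Its WT values were 156, 195 and 186 RPKM on day 0, 124, 180 and 166 RPKM on day 3, and 148, 182 and 187 RPKM on day 6. The DKI values were 172, 161 and 171 RPKM, then 186, 181 and 183 RPKM, then 174, 178 and 173 RPKM. WT replicate 1 was the lowest WT library on every day, and on day 3 the DKI libraries all lay just above the highest WT library.

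For Ncf1 the log2 fold change of DKI against WT was 0.24 ± 0.19 on day 3 (95% interval -0.22 to 0.71, limma adjusted p = 0.467) and 0.03 ± 0.17 on day 6 (-0.37 to 0.42, limma adjusted p = 0.931). Without replicate 1 of days 3 and 6 these values were 0.07 and -0.08. The change from day 0 to day 3 was -0.20 ± 0.19 in WT and 0.13 ± 0.16 in DKI, and neither was called. Without WT day 3 replicate 1 the WT change was -0.046. The 95% interval of the genotype difference lay within 1.5-fold in both directions on day 6 and reached beyond it on day 3.

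Ncf4 encodes p40phox, whose PX domain binds the phosphoinositide PI3P on phagosomes. The WT libraries gave 160, 173 and 156 RPKM on day 0, 99.99, 103 and 114 RPKM on day 3, and 91.7, 90.3 and 78.7 RPKM on day 6. The DKI libraries gave 173, 145 and 166 RPKM, then 135, 131 and 136 RPKM, then 125, 111 and 81.7 RPKM. All libraries of days 3 and 6 lay below all libraries of day 0 in both genotypes; from day 0 to day 3 this held for 32.2% of all genes in WT and 34.6% in DKI. The WT and DKI libraries did not overlap on day 3 and overlapped on day 6.

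In WT cells Ncf4 fell by 0.62 on the log2 scale from day 0 to day 3 (SE 0.13, limma adjusted p = 0.00871), to 0.651 of its day 0 level. It was the single member called in this step, in which 43.1% of all genes were called, 22.8% lower. The fold lies close to the limit of 1.5, and 3 alternatives took it below: median centring (-0.53), leaving out WT day 0 replicate 2 (-0.57) and leaving out WT day 3 replicate 1 (-0.58), all with an adjusted p between 0.0184 and 0.0400. In DKI cells the step was -0.26 ± 0.17 (adjusted p = 0.246), and -0.094 with median centring. The genotype by time term was 0.36 ± 0.17 (limma adjusted p = 0.360), so the change was not shown to differ between genotypes. On day 3 Ncf4 was 0.34 ± 0.15 higher in DKI on the log2 scale (95% interval -0.01 to 0.69, limma adjusted p = 0.198) and on day 6 0.26 ± 0.20 (-0.22 to 0.75, adjusted p = 0.430), with 3 of 3 pairs higher in DKI on both days. For day 3 the pair count follows from the groups not overlapping. The day 6 value ranged from 0.13 without DKI replicate 1 to 0.44 without DKI replicate 3, and was 0.17 without replicate 1 of days 3 and 6.

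Rac2 is the Rac GTPase of blood cells, which joins the complex on activation. WT cells gave 124, 186 and 214 RPKM on day 0, 159, 105 and 169 RPKM on day 3, and 136, 121 and 174 RPKM on day 6. DKI cells gave 124, 171 and 212 RPKM, then 92.2, 80.5 and 150 RPKM, then 147, 91.5 and 106 RPKM. The genotypes overlapped on every day.

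The log2 fold change of Rac2 in DKI against WT was -0.44 ± 0.31 on day 3 (95% interval -1.18 to 0.29, limma adjusted p = 0.405), with 3 of 3 pairs lower in DKI. On day 6 it was -0.33 ± 0.24 (-0.91 to 0.25, adjusted p = 0.401), with 2 of 3 pairs lower. Median centring made both smaller, at -0.36 on day 3 and -0.19 on day 6. Without replicate 1 of days 3 and 6, the values were -0.27 on day 3 and -0.56 on day 6. Leaving out 1 library at a time gave -0.71 (without DKI replicate 3) to -0.26 (without DKI replicate 2) on day 3. On day 6 it gave -0.52 (without DKI replicate 1) to -0.19 (without DKI replicate 2 or WT replicate 3), none of them called. From day 0 to day 3 the change was -0.27 ± 0.27 in WT and -0.66 ± 0.31 in DKI (adjusted p = 0.138), uncalled in both. Leaving out 1 library at a time moved the WT change between -0.49 (without day 0 replicate 1) and -0.052 (without day 3 replicate 2), and the DKI change between -0.93 (without day 3 replicate 3) and -0.48 (without day 3 replicate 2 or day 0 replicate 3). These intervals are wide enough to hold both no difference and a fold above 1.5.

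Counted together, limma called 0 of 4 members for DKI against WT on day 3, where 7.42% of all 9740 genes were called, and 0 of 4 on day 6, where 7.54% of 9842 genes were. At an unadjusted p below 0.05 the counts were 0 of 4 on day 3 (26.5% of all genes) and 1 of 4 on day 6 (Cyba, against 28.2% of all genes). Every DKI library was above every WT library for 3 of the 4 on day 3 (Cyba, Ncf1 and Ncf4; 13.4% of all genes) and for 1 on day 6 (Cyba; 10.6%). The median log2 fold change of the members was 0.29 on day 3 and 0.14 on day 6. From day 3 to day 6 limma called 0 of 4 members and 0% of all genes in both genotypes, and 722 of 9613 genes in WT (7.51%) and 93 of 9540 in DKI (0.975%) had an unadjusted p below 0.05, none of them a member. In bulk RNA, fewer cells of a type and less RNA per cell cannot be told apart.

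**Figure D2:**
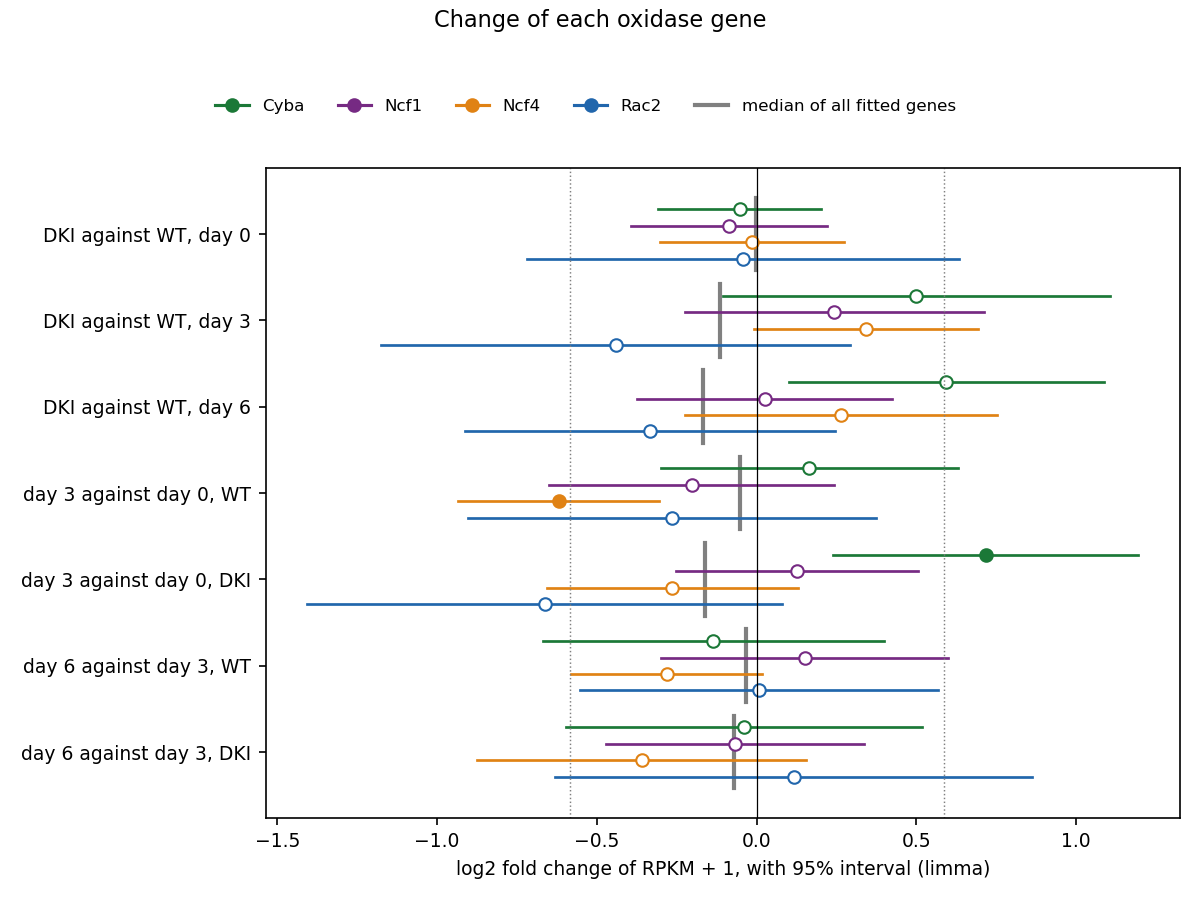
Log2 fold change of RPKM + 1 (points) with the 95% interval from limma (lines) for the 4 members in 7 comparisons; filled points passed both limits, dotted lines mark a 1.5-fold change and grey bars the median of all fitted genes. Only Ncf4 from day 0 to day 3 in WT (-0.62) and Cyba in the same step in DKI (0.72) are filled.

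Cell type markers moved with genotype in the same libraries. The 6 markers of Ly6C+ CCR2+ monocytes summed to 800 to 1192 RPKM in WT and 1468 to 2466 RPKM in DKI on day 3, and to 631 to 1126 RPKM and 1382 to 1737 RPKM on day 6. None of the 6 was called on either day, although 4 were higher in DKI at an unadjusted p below 0.05 on day 3 and 1 on day 6. Itgam and Csf1r, the latter also among the macrophage markers, made up 58.1% to 89.5% of these sums. Ccr2, one of the genes that name the class, gave overlapping groups. Its log2 fold changes were -0.41 on day 3 and -0.50 on day 6 (limma adjusted p = 0.801 and 0.617). In DKI it read 32.5, 106 and 395 RPKM on day 3, and 33.3, 98.7 and 168 RPKM on day 6. On both days DKI replicate 1 lay below every WT library and DKI replicate 3 above every WT library. The DKI libraries therefore shared no direction. The 6 macrophage markers summed to 469 to 860 RPKM in WT and 1407 to 2472 RPKM in DKI on day 3, and Mertk, Mrc1 and Stab1 were called higher in DKI, as 3.21% of all genes were. On day 6 they summed to 372 to 982 RPKM in WT and 1123 to 2079 RPKM in DKI, and Mrc1 and Stab1 were called higher (2.72% of all genes). On day 3 the 7 markers of monocyte-derived dendritic cells summed to 10772 to 11880 RPKM in WT and 677 to 2327 RPKM in DKI, and Ccr7, Ccl17, Zbtb46 and Cd209a were called lower, as 4.21% of all genes were (Cd209a not with the replicate block, adjusted p = 0.0563). On day 6 they summed to 6995 to 11985 RPKM and 1158 to 3991 RPKM. The same 4 were called lower (4.82% of all genes), and 2 of the 7 with the replicate block. Neutrophils express this oxidase strongly, and the 14 neutrophil markers summed to 289 to 4881 RPKM in WT and 1737 to 3843 RPKM in DKI on day 3, and to 140 to 1101 RPKM and 537 to 3745 RPKM on day 6. Of these 14, 2 were called higher in DKI on day 3 (Csf3r and Retnlg, with Mmp8 added by the replicate block, adjusted p = 0.0212) and 1 on day 6 (Csf3r), where 2.72% of all genes were called higher. At an unadjusted p below 0.05, 5 were higher and 1 lower (Cxcr2) on day 3. Mmp8 alone made up 4.73% to 64.1% of the neutrophil sum on day 3 and 9.60% to 89.2% on day 6. WT day 3 replicate 2 held the highest neutrophil sum of its day, and without it the difference of Cyba was 0.58. Markers also moved with time. From day 0 to day 3 in WT, limma called 6 of 13 fitted neutrophil markers lower and 1 higher, and all 3 eosinophil markers lower. Of the 6 monocyte markers 3 were called lower and 1 higher, and of the 7 dendritic cell markers 6 higher and 1 lower. Over all genes 20.3% were called higher and 22.8% lower in this step. The part of these cell types in the member values was not tested.

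No partner of the oxidase was called between genotypes. Of 9 partners analysed, all fitted, limma called 0 on day 3 and 0 on day 6, and 1 and 0 were lower at an unadjusted p below 0.05. Their median log2 fold changes were -0.32 and -0.19. Rac1 is given here although the rule for named genes did not select it, and was chosen after its values were seen. Rac1, the Rac GTPase found in most tissues, gave 345, 313 and 272 RPKM in WT, against 176, 221 and 220 RPKM in DKI, on day 3. The groups did not overlap, as was so for 22.9% of all genes in the direction of lower in DKI. The log2 difference was -0.59 ± 0.20 on day 3 (limma adjusted p = 0.122) and -0.42 ± 0.19 on day 6 (limma adjusted p = 0.201).

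By the mean over all 18 libraries, the most abundant partners were S100a8, Arhgdib, S100a9 and Arhgdia, an order that differed between days. Arhgdib, which encodes the RhoGDI that keeps Rac2 soluble, gave 568 ± 92.6 RPKM in WT, against 460 ± 95.5 RPKM in DKI on day 3 (log2 fold change -0.32 ± 0.26, limma adjusted p = 0.474). Arhgdia, a related RhoGDI, gave -0.36 ± 0.20 (adjusted p = 0.317). S100a8 and S100a9, calcium-binding proteins that are also neutrophil markers, ranged from 81.9 to 2192 RPKM and from 79.8 to 1757 RPKM among the WT day 3 libraries alone.

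Ratios of subunits within a library do not depend on how that library was scaled. The 5 ratios were chosen after the values were seen, and each was compared between genotypes on each day, 15 comparisons in all, by an exact two-sided permutation test of log2 ratios that cannot give a p below 0.1 with 3 libraries against 3. The Cyba to Ncf1 ratio was 4.27, 4.22 and 4.71 in WT and 4.78, 5.78 and 5.19 in DKI on day 3, and 3.87, 4.07 and 2.96 against 5.70, 4.93 and 5.41 on day 6. The genotypes did not overlap on either day (exact p = 0.1 on both, adjusted p = 0.5), and overlapped on day 0.

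The Rac2 to Cyba ratio was 0.237, 0.163 and 0.314 in WT and 0.148, 0.104 and 0.113 in DKI on day 6, again without overlap (exact p = 0.1, adjusted p = 0.5). On day 3 it overlapped (0.218 ± 0.0806 in WT and 0.113 ± 0.0416 in DKI, n = 3 each, exact p = 0.2, adjusted p = 0.75). All comparisons but these 3 overlapped, among them those of Ncf4 to Ncf1, Cyba to Ncf4 and Rac2 to Rac1 on every day. Of these 12, 4 moved one way in each of the 3 WT and DKI pairs that share a number: the Rac2 to Cyba ratio was lower in DKI on day 3, and Rac2 to Rac1 on day 3, Cyba to Ncf4 on day 3 and Ncf4 to Ncf1 on day 6 were higher. With only 3 pairs, one direction throughout is common without any difference, and the ratios share genes, so this count shows no shift. In the unpaired exact test these 4 had adjusted p of 0.75 to 0.875. No paired test was run on the ratios.

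**Figure D3:**
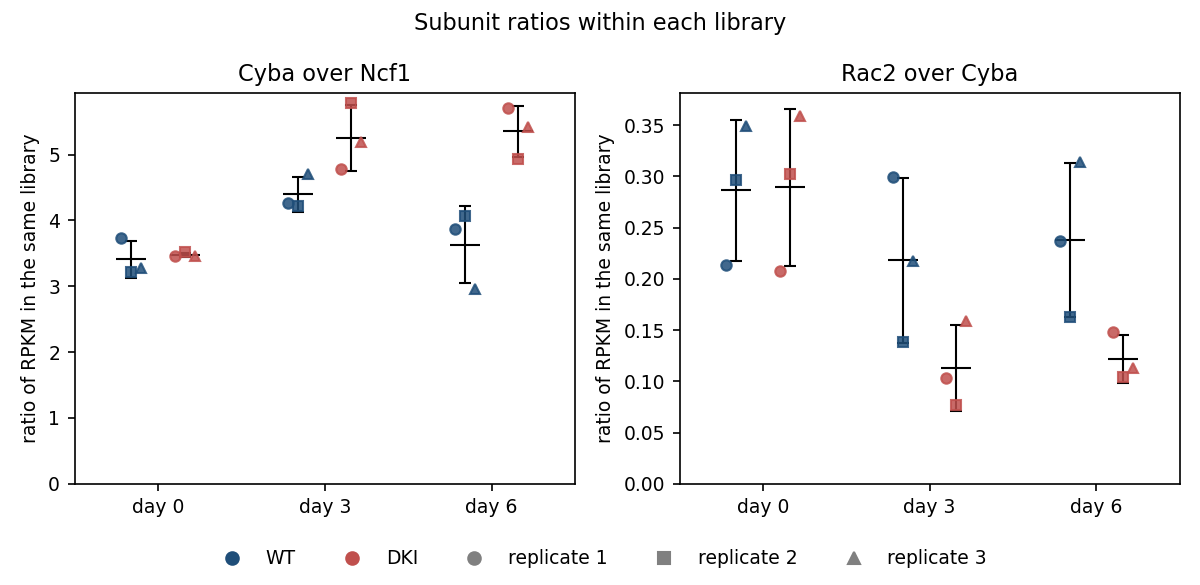
Ratio of RPKM values in the same library (linear axis from 0), Cyba over Ncf1 on the left and Rac2 over Cyba on the right, for WT (blue) and DKI (red) by day; bars are means and error bars 1 SD (n = 3). The Cyba over Ncf1 ratio on day 3 is 4.22 to 4.71 in WT and 4.78 to 5.78 in DKI, and the Rac2 over Cyba ratio on day 6 is 0.163 to 0.314 in WT and 0.104 to 0.148 in DKI.

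Among genes that act upstream of the oxidase, the few called were lower in DKI. Of 20 listed, mostly exchange factors and kinases but also the lipid phosphatase Inpp5d, which opposes PI3-kinase, and the phospholipase Plcg2, 17 were fitted on day 3, with 1 called lower and 0 higher, and 18 on day 6, with 3 called lower and 0 higher, against 4.21% and 4.82% of all genes called lower. At an unadjusted p below 0.05, 8 were lower and 1 higher on day 3, and 9 lower and 0 higher on day 6. Over all genes 26.5% and 28.2% had such a p in either direction. All genes leaned lower too, with a negative log2 fold change in 61.4% on day 3 and 66.5% on day 6. The median log2 fold changes of the list were -0.37 and -0.47. The 1 call on day 3 is a share near that of all genes. On day 3 the groups did not overlap for 8 genes lower in DKI (22.9% of all genes) and 2 higher (13.4%). The 2 were Vav1, a Rac exchange factor of blood cells, and the kinase Syk (log2 fold changes 0.53 and 0.35, limma adjusted p = 0.130 and 0.210), named after their values were seen. Pik3cg encodes the catalytic subunit of PI3-kinase gamma. On day 3 it read 129, 90.2 and 89.8 RPKM in WT, against 32.9, 35.04 and 39.9 RPKM in DKI, and was called lower by limma on day 3 (-1.48 ± 0.19, adjusted p = 0.0128) and on day 6 (-1.63 ± 0.23, adjusted p = 0.0192).

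Prex1, a Rac exchange factor that responds to PI3-kinase, was lower on day 6 by limma (-1.21 ± 0.27, adjusted p = 0.0498), with 165, 114 and 154 RPKM in WT, against 80.5, 65.7 and 43.3 RPKM in DKI. Pik3r5, a regulatory subunit of PI3-kinase gamma, was lower on day 6 as well (-1.19 ± 0.22, adjusted p = 0.0331). With the replicate number as a block, the calls of Prex1 (adjusted p = 0.0581) and Pik3r5 (adjusted p = 0.0551) were lost, that of Pik3cg stayed (0.0342), and Prkcb, a protein kinase C that phosphorylates p47phox, was called lower on day 3 (-1.45, adjusted p = 0.0324).

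The other pathway lists held no called gene between genotypes. Of 16 enzymes that handle superoxide and peroxide, 13 were fitted on each day and limma called 0 (1 lower on day 3 and 3 lower on day 6 at an unadjusted p below 0.05; Sod3 was called on day 6 with the replicate block, adjusted p = 0.0227). Gpx1, a glutathione peroxidase, had the highest mean over all 18 libraries, with 866 ± 76.2 RPKM in WT, against 666 ± 189 RPKM in DKI on day 3 (log2 fold change -0.42 ± 0.29, limma adjusted p = 0.408). Prdx1, Prdx5 and Sod1 came next by that mean, in an order that differed between days and groups, with day 3 log2 fold changes of -0.13, 0.56 and -0.59. For Sod1 only DKI replicate 1 stood apart (59.7, 221 and 196 RPKM in DKI, against 194, 198 and 231 RPKM in WT). Prdx5 gave overlapping groups (676, 286 and 646 RPKM in DKI, against 261, 310 and 478 RPKM in WT). Of 8 genes of NADPH supply, 6 were fitted and limma called 0 (0 at an unadjusted p below 0.05 on day 3 and 1 on day 6). By the same mean the most abundant were Taldo1, Pgd, Tkt and Idh1, whose order also differed between days (on day 0 Nadk was above Idh1), with day 3 log2 fold changes of -0.49, -0.43, -0.52 and 0.68. For each of them 1 DKI library stood apart on day 3. The DKI replicates gave 143, 316 and 300 RPKM for Taldo1 and 156, 382 and 355 RPKM for Pgd. They gave 104, 226 and 247 RPKM for Tkt and 80.8, 92.9 and 245 RPKM for Idh1.

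Of 10 transcription factors described at the Cybb promoter, limma called 0 on days 3 and 6, and 3 were higher and 1 lower at an unadjusted p below 0.05 on day 3. Spi1, which encodes the myeloid factor PU.1, gave 353 ± 53.4 RPKM in WT, against 311 ± 31.1 RPKM in DKI on day 3 (log2 fold change -0.18 ± 0.20, limma adjusted p = 0.616). Cebpb was 1.51 ± 0.49 higher in DKI on the log2 scale (limma adjusted p = 0.119), with 62.6 ± 34.3 RPKM in WT, against 157 ± 16.3 RPKM in DKI. Irf8 and Cebpa gave 0.24 and -0.60. For Irf8 only DKI replicate 1 lay above every WT library (89.5, 26.9 and 41.0 RPKM in DKI, against 29.2, 65.0 and 31.2 RPKM in WT). Cebpa was lowest in the same library (44.6, 76.0 and 69.6 RPKM in DKI, against 88.3, 87.5 and 108 RPKM in WT). Of the 10 listed NOX and DUOX family genes, 9 were matched and 0 had a mean above 2 RPKM in any group.

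**Figure D4:**
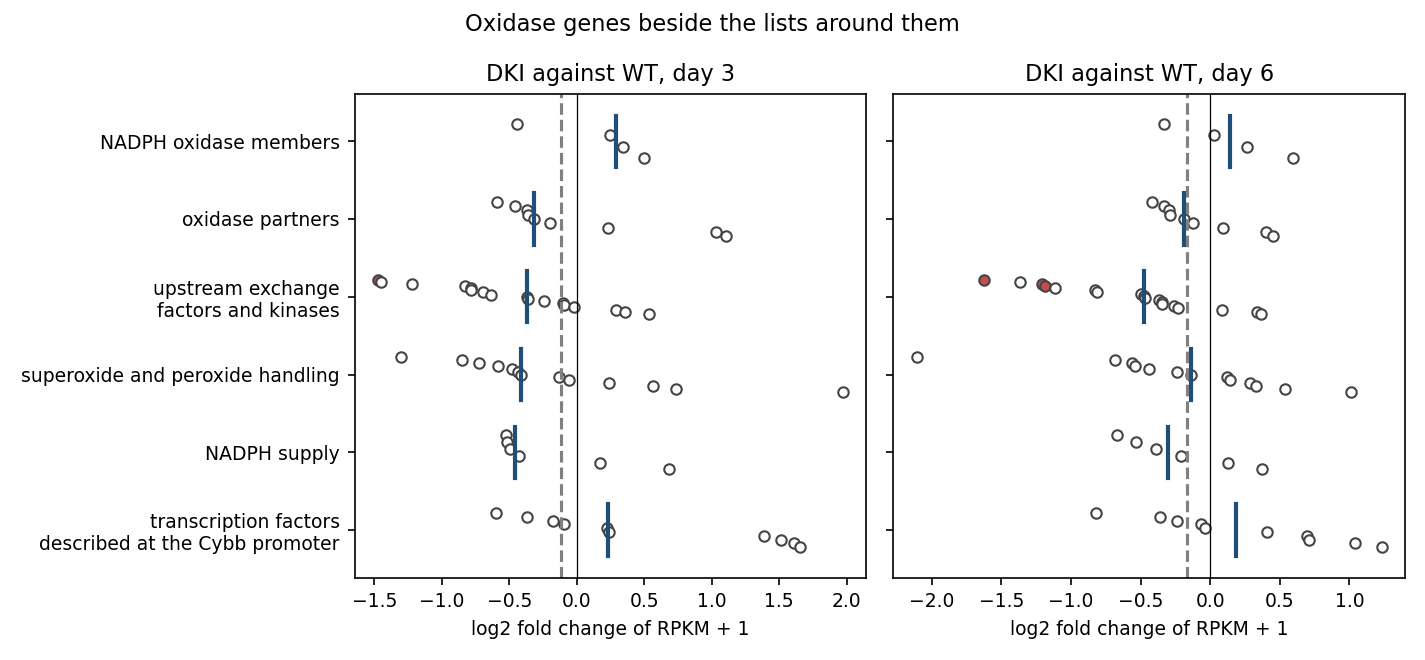
Log2 fold change of RPKM + 1 in DKI against WT on day 3 (left) and day 6 (right) for each fitted gene of the members and 5 lists; red points were called, blue bars are list medians and the dashed grey line is the median of all fitted genes (-0.11 and -0.17). The medians are 0.29 and 0.14 for the members and -0.37 and -0.47 for the list made up mostly of exchange factors and kinases.

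The genes most like each member were taken as those with the highest Pearson r of log2(RPKM + 1) over the 18 libraries among 10417 genes, a description in which points share library and day. For Cyba they were Abcd3 (r = 0.936), Cd84 (0.931) and Tspan4 (0.928). Cd84 and Tspan4 encode membrane proteins. These r values include the genotype difference of Cyba, so no genotype test of its matches is given. For Ncf4 they were Cds1 (0.943), Vav1 (0.942) and Katna1 (0.925). Vav1 went from a mean of 84.3 RPKM on day 0 to 37.6 RPKM on day 3 in WT. For Rac2 they were Gas2 (0.877), Ddost (0.870) and Ppif (0.862). The best matches of Ncf1 were weaker, with Paip1 at 0.737, Tal1 at 0.704 and Ppm1h at 0.699.

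The members did not share a single pattern over the 18 libraries. Cyba and Ncf1 had r = 0.44, Ncf1 and Ncf4 0.18, Ncf4 and Rac2 0.26, and Cyba and Rac2 -0.61. These values describe libraries pooled over 6 groups and carry no test.

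In the mm10 mouse genome, Cyba lies at chr8:122424771-122432940 and Ncf1 at chr5:134220053-134229628, both on the minus strand. Ncf4 (chr15:78244164-78262582, plus strand) and Rac2 (chr15:78559169-78572783, minus strand) lie 297 kb apart on the same chromosome. The interval holds 16 RefSeq genes, among them Csf2rb, which encodes the beta chain shared by the receptors for GM-CSF, IL-3 and IL-5, and Csf2rb2, which encodes the beta chain that mice have for IL-3 alone. Both were singled out after their values were seen. Csf2rb2 was called lower in DKI on day 3 (log2 fold change -0.92 ± 0.19, limma adjusted p = 0.0405) and Csf2rb gave -0.67 ± 0.33 (limma adjusted p = 0.255). The pair are near copies, so reads may be split between them and both values are uncertain. With the replicate block the Csf2rb2 call was lost (adjusted p = 0.0711).

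Promoter sequences were found for Cyba and Ncf1, and are shown because STAT dimers bind a short palindrome, TTCNNNGAA, and the question of the study is what STAT5 tetramers do. The 250 bases before each start site are from RefSeq (GRCm38.p6, the mm10 assembly), 5′ to 3′ on the minus strand, at chr5:134229626-134229875 for Ncf1 and chr8:122432941-122433190 for Cyba. The Ncf1 start site used lies just inside the gene bounds given above, so the last 3 bases of its window fall within them. Capitals mark motif matches.
Ncf1: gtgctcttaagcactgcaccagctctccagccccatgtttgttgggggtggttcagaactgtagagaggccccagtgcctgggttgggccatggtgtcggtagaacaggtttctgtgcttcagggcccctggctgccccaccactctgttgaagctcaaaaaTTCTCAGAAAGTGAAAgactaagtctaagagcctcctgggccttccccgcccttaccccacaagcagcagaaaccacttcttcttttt
Cyba: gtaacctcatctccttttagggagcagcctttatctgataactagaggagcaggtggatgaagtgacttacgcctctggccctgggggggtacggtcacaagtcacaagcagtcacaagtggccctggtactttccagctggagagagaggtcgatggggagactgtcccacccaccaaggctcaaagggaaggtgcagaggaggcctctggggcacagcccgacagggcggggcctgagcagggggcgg

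Motifs were searched by letters on both strands, with N for any base. TTCNNNGAA matched once in Ncf1, as TTCTCAGAA from base -88 to -80 before the start, and was in 7.02% of 32851 promoter windows of this length. A pair of GAAA runs with NN between them, the core of an interferon-regulatory-factor element, matched as GAAAGTGAAA from base -82 to -73, overlapping the first match by its leading bases, and was in 2.98% of windows. GAGGAAGT, a PU.1 type site, and its shorter form GGAAGT, which it contains, matched in neither promoter and were in 2.44% and 19.7% of windows. Cyba had no match to any of the 4 motifs. A match describes letters and not binding. The study's introduction says that STAT5 tetramers can also bind weaker variants of this palindrome when well spaced. Such variants were not searched, so these counts do not bear on tetramer sites. Promoters of Ncf4 and Rac2 were not analysed here.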

How the data were processed

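RNA-seq libraries of WT and DKI monocytes on days 0, 3 and 6 were used, grouped by the genotype, time and replicate number in the labels. The authors aligned single-end reads to mm10 with Subread, counted them per RefSeq gene with featureCounts and deposited RPKM values; tool versions, strandedness and the treatment of multi-mapping reads are not given in the sources used here. Gene IDs were matched to RefSeq for 20082 of 20298 genes. Depth was estimated from the smallest steps of the RPKM values of 1167 single-exon genes, and is approximate.

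RPKM are not counts, so limma 3.58.1 (R 4.3.3; lmFit, eBayes with an intensity trend) was fitted to log2(RPKM + 1), which understates changes of low genes, for genes with a mean RPKM above 2 in a compared group, using only the compared groups. P-values were adjusted (Benjamini-Hochberg) over all fitted genes, and calls needed an adjusted p below 0.05 and a fold above 1.5. The script was tested on simulated data. Python 3.11.15 with scipy 1.17.1 was used for the rest.

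Alternatives were pseudocounts of 0.1 and 5, no filter, median centring, quantile normalization, all 18 libraries in a single fit, the replicate number as a block, no intensity trend, and leaving out each library; leaving out replicate 1 of days 3 and 6 together was added after seeing the data. On each day, WT and DKI libraries with the same number deviated from their group means together (mean r of 0.80, 0.26 and 0.39 on days 0, 3 and 6, every pair above 0.1), so the numbers pair these samples. Each library was also closest to the one with its own number. For day 6 and day 3 within a genotype every pair was again above 0.1 (mean r 0.36 in WT and 0.56 in DKI). There the closest library did not always share the number. Replicate 1 had the highest r (0.68 in WT and 0.74 in DKI) and replicate 3 the lowest (0.12 and 0.32). Day 3 and day 0 were not paired by number. No 2 libraries were identical.

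The members and gene lists were chosen with earlier results of these data known. Named genes were the members, the 3 genes most correlated with each, and from each list up to 4 called genes or, where none was called, the 4 most abundant; exceptions are stated. One further gene of the lists is not reported here.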

Additional observations from a re-analysis of the deposited data

How the results depend on the processing

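Across 165 recomputed counts of called members, 152 stayed within 1.5 times the reported count and 13 did not. The count for DKI against WT on day 6 went from 0 to 1 with all 18 libraries in one fit. The count for day 3 against day 0 went from 1 to 0 in WT with median centring, and in DKI without the filter, with quantile normalization and with the replicate block (adjusted p of Cyba 0.217, 0.150 and 0.0553). Leaving out 1 library each time gave counts of 0 to 1 for both of these steps and for the genotype by time term from day 0 to day 6, and 0 for the other comparisons. The replicate block, whose numbers do not pair days 0 and 3, changed no other call of a member. Of 660 recomputed fold changes of members, 622 kept direction and call, 11 lost and 2 gained the call, and 25 changed sign, all uncalled. With median centring, the DKI change from day 3 to day 6 was 0.032 for Cyba and 0.0043 for Ncf1, and with quantile normalization 0.012 for Ncf1. Without replicate 1 of days 3 and 6, Ncf1 was -0.076 for DKI against WT on day 6, and Rac2 was -0.16 from day 3 to day 6 in DKI and -0.28 in the genotype by time term from day 3 to day 6. Leaving out single libraries gave these ranges. For DKI against WT they were -0.065 to 0.060 (Ncf4, day 0), -0.27 to 0.16 (Rac2, day 0) and -0.080 to 0.088 (Ncf1, day 6). From day 3 to day 6 they were -0.0074 to 0.26 (Ncf1) and -0.21 to 0.14 (Rac2) in WT, and -0.094 to 0.022 (Cyba) and -0.073 to 0.38 (Rac2) in DKI. For the genotype by time term from day 3 to day 6 they were -0.0046 to 0.27 (Cyba), -0.21 to 0.10 (Ncf4) and -0.081 to 0.37 (Rac2). The cause was not tested.

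Counts over all genes moved more. For DKI against WT on day 6, 268 genes were called higher and 474 lower, against 323 and 285 with median centring and 26 and 12 without replicate 1 of days 3 and 6, a fit with 4 libraries. On day 3 there were 313 and 410, against 58 and 81 without the filter, which tests 20298 genes, and 564 and 795 with all 18 libraries. In DKI from day 0 to day 3 there were 1297 and 2097, against 1743 and 1622 with median centring. Leaving out 1 library at a time gave 197 to 715 called genes on day 3 (197 to 216 without a WT library) and 90 to 984 on day 6, and 125 to 336 and 117 to 664 for the genotype by time terms from day 0 to days 3 and 6. With 3 libraries in a group, the 95% intervals of Rac2 reached beyond a 1.5-fold change in every genotype comparison.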
